A study of Mus musculus with 6 samples.

Results

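The costimulatory and checkpoint molecules described here are 10 genes of the 54532 gene identifiers in the count table: Cd274, Pdcd1lg2, Cd80, Cd86, Cd40, Icosl, Cd28, Havcr2, Cd276 and Vsir. The set was selected on the overexpression against control values themselves, with earlier results of these libraries known, so the values of the 10 genes are a description and carry no test. Messenger RNA was sequenced from mouse peritoneal macrophages, the phagocytes of the abdominal cavity, cultured in serum-containing medium with antibiotics. Of the libraries, 3 are labelled as Rfx1 overexpression (OE 1 to OE 3) and 3 as negative control (NC 1 to NC 3). Rfx1 encodes a DNA-binding factor of the RFX family, which recognises the X-box, and the comparison asks how transcripts differ when it is overexpressed. The labels name no vector, strain, age or culture time. They also do not say if replicates are separate mice or wells, so a p-value here reflects spread among these libraries, which may be technical.

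A T cell that meets its antigen needs a further signal from the presenting cell. Cd80 and Cd86 (B7-1 and B7-2) give it through Cd28 on the T cell, Icosl gives it through Icos, and Cd40 on the presenting cell receives the T cell's own signal from Cd40lg. Cd274 (PD-L1) and Pdcd1lg2 (PD-L2) restrain the T cell through Pdcd1 (PD-1), and Vsir (VISTA), Cd276 (B7-H3) and Havcr2 (TIM-3) are also counted among the checkpoint molecules. In macrophages, interferon gamma and microbial products are known to raise Cd274, Cd86 and Cd40.

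Of the costimulatory and checkpoint genes, Cd274, Cd86 and Cd40 were higher in the OE libraries, and Cd28 was lower. All 10 passed the filter on low counts. At the threshold used for all genes, an edgeR quasi-likelihood p of 0.05 after Benjamini-Hochberg adjustment over 13454 genes, 3 of the 10 were higher, 1 was lower and 6 were not called. Among all genes tested, 6.9% were called higher and 5.97% lower, and since the set was chosen on this contrast nothing is read from the comparison of those shares. Every OE library lay above every NC library for 4 of the 10 genes, against 16.3% of all genes, and every OE library lay below every NC library for 2 of the 10, against 17.1%. The median log2 difference of the 10 genes was 0.71, beside -0.01 over all genes tested.

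Libraries held 16461277 to 18795575 counts, and values are CPM (a gene's count relative to the library total after scaling by edgeR's TMM factors) unless a scale per length is named. Rfx1 itself was 40.8, 36.4 and 23.2 CPM in OE 1, OE 2 and OE 3, against 57.6, 10.97 and 14.8 CPM in NC 1, NC 2 and NC 3. The library labelled NC 1 held the most Rfx1 mRNA, against its label, so every direction here rests on the labels: the log2 difference was 0.27 ± 0.58 (SE, edgeR adjusted p = 0.80), and 1.37 without NC 1 (edgeR adjusted p = 0.024). On the first principal component OE 3 lay nearest the controls, and leaving out 1 library at a time moved the count of genes called higher between 454 (without NC 2) and 1657 (without OE 3), and of genes called lower between 250 (without OE 2) and 1800 (without OE 3). Macrophage markers were present in every library, Cd68 at 1912 to 2714 CPM in the OE libraries and 1893 to 2640 CPM in the NC libraries. Of the 8 macrophage markers edgeR called 3 higher and 0 lower, beside 6.9% and 5.97% of all genes. The log2 differences were 3.88 ± 0.46 for Cd14, 1.37 ± 0.33 for Adgre1 and 0.97 ± 0.24 for Itgam (SE, edgeR adjusted p = 0.0011, 0.024 and 0.026). The part of these genes in the levels of Cd274, Cd86 and Cd40 was not tested. Lyz2, the macrophage lysozyme gene, was not called but differed widely between libraries of the same label, at 44.7 and 40.8 CPM in OE 1 and OE 2 and 29281 CPM in OE 3, against 15672 to 38702 CPM in the NC libraries. Values without OE 1 and OE 2 are therefore given beside the leading results, a choice made after the data were seen, in which OE 3 alone is taken to vary as the controls do.

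Cd274, on chromosome 19 (mm10 positions 29367455 to 29388095, + strand), encodes PD-L1, the ligand through which macrophages restrain T cells that carry PD-1. It was at 947, 1488 and 822 CPM in OE 1, OE 2 and OE 3, against 130, 89.6 and 81.3 CPM in NC 1, NC 2 and NC 3. The groups did not overlap, and the lowest OE library exceeded the highest NC library several times over. The means were 1086 ± 354 CPM in OE libraries and 100.3 ± 25.98 CPM in NC libraries (SD, n = 3 each), 10.8-fold apart, with a log2 difference of 3.44 ± 0.33 (SE). Leaving out 1 library at a time gave differences of 3.15 to 3.66, and OE 3 alone against the controls gave 3.04. An unnamed gene on the opposite strand shares 511 exon bases with Cd274 in the annotation and was not in the table, and since the strand setting of the counting is not given, reads from the 2 strands cannot be told apart there.

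Pdcd1lg2 lies beside Cd274 on chromosome 19 (29410919 to 29471161, + strand) and encodes PD-L2, the other ligand of PD-1. It was at 2.46, 2.95 and 1.48 CPM in the OE libraries, against 1.75, 1.01 and 0.763 CPM in the NC libraries. The libraries OE 3 and NC 1 overlapped, and the log2 difference was 0.96 ± 0.51 (SE), not called. Per kilobase of exon, Cd274 exceeded Pdcd1lg2 by 208, 273 and 302 times in the OE libraries and by 40.2, 48.0 and 57.7 times in the NC libraries. The neighbouring genes thus held very unequal levels in both groups, and the gap was wider in each OE library than in any NC library.

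The 250 bases before the start of each gene are shown for the PD-1 ligands because Cd274 and Pdcd1lg2 were the members whose windows held a searched motif, with Vsir, which held none, beside them. Windows are from RefSeq on GRCm38.p6, written 5′ to 3′ on the gene's strand, and 7 of the 10 genes were matched there. Capitals mark the motif match. In Cd274 it is the interferon regulatory factor motif GAAANNGAA, found on the opposite strand 76 to 68 bases before the start. In Pdcd1lg2 it is the NF-kB consensus, 244 to 235 bases before the start and matched on both strands at the same bases.
Cd274, chr19:29367188-29367437, + strand: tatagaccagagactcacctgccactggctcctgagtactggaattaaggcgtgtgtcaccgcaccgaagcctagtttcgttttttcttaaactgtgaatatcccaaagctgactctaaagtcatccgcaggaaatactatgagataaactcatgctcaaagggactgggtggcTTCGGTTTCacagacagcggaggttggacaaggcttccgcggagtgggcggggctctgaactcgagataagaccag
Pdcd1lg2, chr19:29410669-29410918, + strand: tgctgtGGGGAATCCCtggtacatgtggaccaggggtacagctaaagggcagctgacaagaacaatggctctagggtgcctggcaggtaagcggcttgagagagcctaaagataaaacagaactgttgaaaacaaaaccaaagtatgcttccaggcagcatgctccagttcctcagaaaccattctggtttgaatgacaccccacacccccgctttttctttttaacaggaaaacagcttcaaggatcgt
Vsir, chr10:60346601-60346850, + strand: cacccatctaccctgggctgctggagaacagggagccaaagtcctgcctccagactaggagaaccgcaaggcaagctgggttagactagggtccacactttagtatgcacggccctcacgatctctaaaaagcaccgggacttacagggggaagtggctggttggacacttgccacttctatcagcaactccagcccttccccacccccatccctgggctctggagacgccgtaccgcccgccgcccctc
Of 32851 windows of the same length searched on both strands, 7.13% held the interferon regulatory factor motif, 3.9% the NF-kB consensus, 7.02% the STAT motif TTCNNNGAA and 1.29% the X-box consensus bound by RFX factors. The searches for the STAT motif and the X-box found no match in the 7 windows, which says only that these letters are not in these stretches. A match is a description of the sequence and not a bound site.

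**Figure D1:**
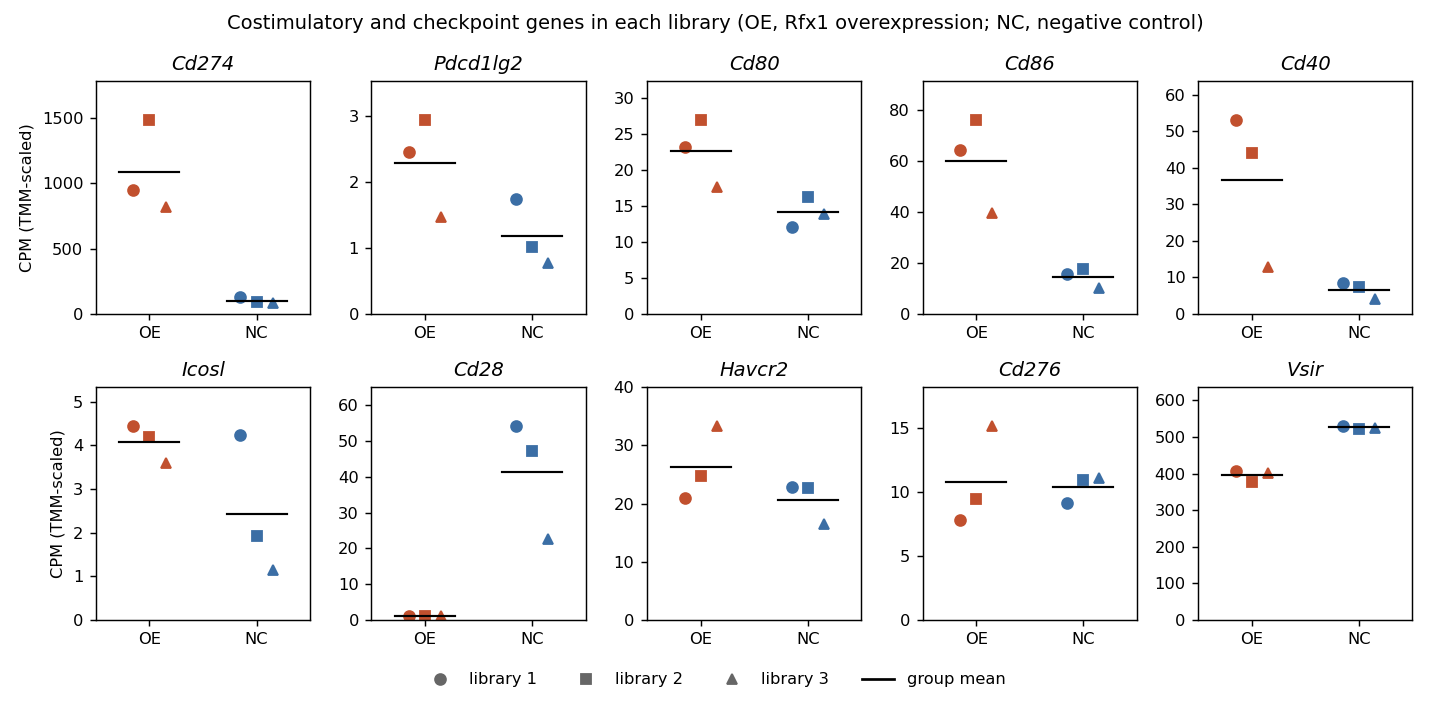
Level of each of the 10 genes in CPM (y axis, linear, each panel with its own scale from 0) in the 3 OE (red) and 3 NC (blue) libraries; points are libraries, shaped by library number, and lines are group means. Cd274, Cd80, Cd86 and Cd40 have all OE points above all NC points, Cd28 and Vsir have all OE points below, and the other genes overlap.

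Cd86, Cd80 and Cd40, through which a presenting cell and a T cell signal to each other, differed in how far they moved. Cd86 (chromosome 16, 36603869 to 36666081, - strand) was at 64.2, 76.0 and 39.5 CPM in the OE libraries, against 15.7, 17.4 and 9.87 CPM in the NC libraries. The means were 59.9 ± 18.6 and 14.3 ± 3.93 CPM (SD, n = 3 each), 4.19-fold apart, with a log2 difference of 2.07 ± 0.31 (SE). Every OE library lay above every NC library, with OE 3 the lowest of its group. With OE 3 alone against the controls the log2 difference of Cd86 was 1.47 and no longer called.

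Cd80 (chromosome 16, 38455561 to 38496335, + strand) binds the same T cell receptors as Cd86. It was at 23.3, 27.0 and 17.7 CPM in the OE libraries, against 12.1, 16.2 and 14.0 CPM in the NC libraries. The groups did not overlap but lay close, with a log2 difference of 0.68 ± 0.24 (SE) that was not called with all libraries and was called without OE 3, at 0.83. Per kilobase, Cd86 exceeded Cd80 by 2.79, 2.84 and 2.26 times in the OE libraries and by 1.31, 1.08 and 0.715 times in the NC libraries. The B7 pair was thus near parity in the NC libraries, while Cd86 was the more abundant in each OE library.

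Cd40 (chromosome 2, 165055627 to 165072948, + strand) is the receptor through which T cells activate macrophages. It was at 53.2, 44.0 and 12.9 CPM in the OE libraries, against 8.45, 7.24 and 4.14 CPM in the NC libraries. The groups did not overlap, but OE 3 lay nearer the controls than to OE 1 or OE 2. The log2 difference was 2.47 ± 0.50 (SE), 5.53-fold. It was not called without OE 1 (2.12), OE 2 (2.33) or NC 2 (2.55), nor with OE 3 alone (0.97).

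Dendritic cells and B cells also carry Cd80, Cd86 and Cd40. The 8 dendritic cell markers summed to 56.1 to 120 CPM in the OE libraries and 132 to 270 CPM in the NC libraries, with Itgax, which macrophages share, the largest part in each library. Of the 5 tested, 2 were called higher and 1 lower, beside 6.9% and 5.97% of all genes. The 1 called lower was Itgax, at 28.9 to 98.0 CPM in the OE libraries and 120 to 260 CPM in the NC libraries (log2 difference -1.79 ± 0.49 SE, edgeR adjusted p = 0.044). Flt3, Xcr1 and Cd209a were at or under 0.944 CPM in every OE library and 0.378 CPM in every NC library. Clec9a, a marker of cross-presenting dendritic cells, was higher at 10.6 to 19.6 CPM in the OE libraries, against 0.958 to 2.36 CPM in the NC libraries (log2 difference 3.13 ± 0.40 SE, edgeR adjusted p = 0.0015), and Ccr7, the lymph node homing receptor, also rose (1.99 ± 0.37 SE, edgeR adjusted p = 0.0082). The 8 B cell markers summed to 39.6 to 109 CPM in the OE libraries and 83.3 to 198 CPM in the NC libraries. Of the 8, edgeR called 0 higher and 0 lower, near the 6.9% and 5.97% of all genes. At an unadjusted edgeR p below 0.05, 0 were higher and 2 lower, while DESeq2 called 1 lower and limma-voom 0. The part of these cells in the levels of Cd86, Cd80 and Cd40 was not tested, and in bulk libraries fewer cells of a type and less RNA per cell cannot be told apart.

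Icosl (chromosome 10, 78069302 to 78083913, + strand), the ligand of Icos, was at 4.45, 4.19 and 3.60 CPM in the OE libraries, against 4.25, 1.92 and 1.15 CPM in the NC libraries. NC 1 lay among the OE libraries while NC 2 and NC 3 lay below them. The log2 difference was 0.74 ± 0.48 (SE), not called. Without NC 1 and OE 3, the most intermediate library of each label, Icosl and Pdcd1lg2 were both called higher, at 1.49 and 1.61, an alternative chosen after the data were seen.

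Cd28 showed the widest difference of the 10 genes. It encodes the receptor on T cells that binds Cd80 and Cd86, and lies on chromosome 1 (60716800 to 60773359, + strand). It was at 1.09, 0.963 and 1.12 CPM in the OE libraries, against 54.2, 47.2 and 22.5 CPM in the NC libraries. These levels rest on 16, 17 and 19 counts in the OE libraries and 1148, 887 and 412 counts in the NC libraries. The OE libraries were nearly equal and the groups lay far apart, 38.8-fold lower in OE by a log2 difference of -5.28 ± 0.39 (SE). Leaving out 1 library at a time gave -5.03 to -5.58, and OE 3 alone gave -5.19.

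Levels of T and NK cell markers are given here beside those of Cd28. The 12 T and NK cell markers summed to 24.7, 23.2 and 6.79 CPM in the OE libraries, against 41.5, 7.99 and 6.49 CPM in the NC libraries, so the OE libraries lay within the range of the NC libraries. Cd3e, a defining subunit of the T cell receptor complex, was at 0.547, 0.283 and 0.472 CPM in the OE libraries and 2.55, 0.479 and 0.218 CPM in the NC libraries. It had too few counts to be tested and does not stand for the list. The 8 markers tested differed in sign, from -0.98 ± 0.71 for Klrb1c to 0.90 ± 1.45 for Gzma (log2 difference, SE). Cd3d was at 0.68 ± 0.79, and the median was 0.08. Among the NC libraries, both the marker sum and Cd28 were highest in NC 1 and lowest in NC 3, by unequal steps. Of the 8 T and NK cell markers tested, edgeR called 0 higher and 0 lower, near the 6.9% and 5.97% of all genes. At an unadjusted edgeR p below 0.05 there were 0, and DESeq2 and limma-voom called 0. The part of T cells in the level of Cd28 was not tested.

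**Figure D2:**
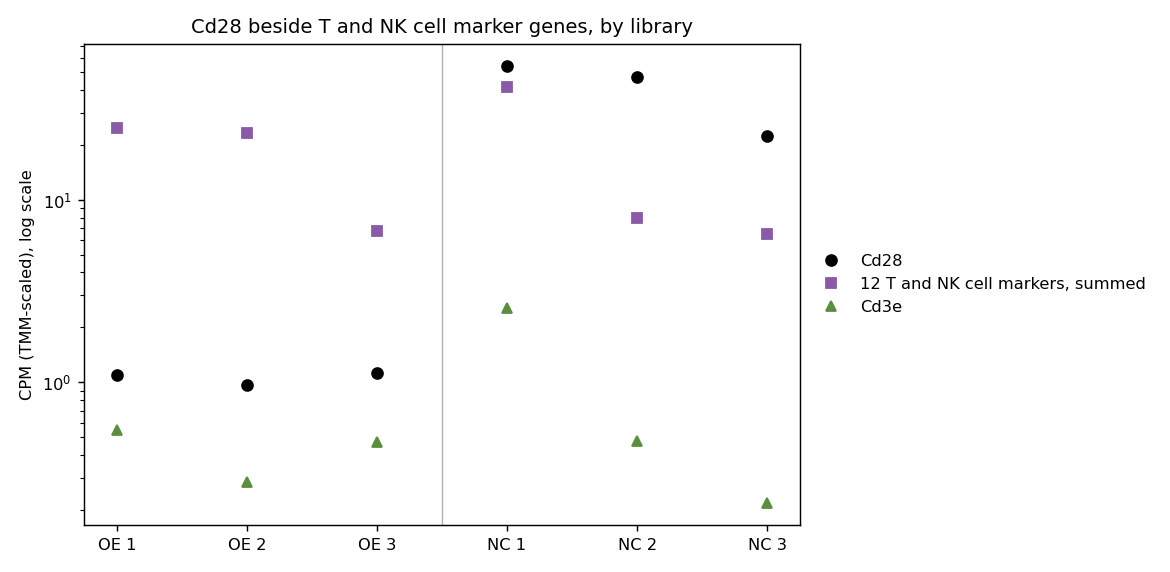
CPM on a log scale (y axis) in each of the 6 libraries (x axis, OE left of the line, NC right of it) for Cd28, for the sum of 12 T and NK cell markers and for Cd3e. Cd3e is among those 12 and had too few counts to be tested. Cd28 is near 1 CPM in all OE libraries and at 22.5 to 54.2 CPM in the NC libraries, where the marker sum spans 6.49 to 41.5 CPM.

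Havcr2, Cd276 and Vsir, counted among the checkpoint molecules, moved little. Havcr2 (chromosome 11, 46454935 to 46481255, + strand), which encodes TIM-3, was at 20.9, 24.7 and 33.3 CPM in the OE libraries, against 22.8, 22.7 and 16.5 CPM in the NC libraries. The groups overlapped, with a log2 difference of 0.35 ± 0.25 (SE).

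Cd276 (chromosome 9, 58524298 to 58555437, - strand), which encodes B7-H3, was at 7.80, 9.46 and 15.2 CPM in the OE libraries, against 9.12, 10.97 and 11.1 CPM in the NC libraries. OE 3 was the highest of the 6, the others overlapped, and the log2 difference was 0.06 ± 0.30 (SE). Its sign depended on the setting: it was -0.27 without OE 3, -0.03 without NC 1 and -0.10 with scaling by library size only. The Gm10657 gene overlaps 416 exon bases of Cd276 on the other strand and had at most a mean of 0.142 CPM in either group.

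Vsir (chromosome 10, 60346851 to 60372684, + strand), which encodes VISTA, an inhibitory protein abundant on myeloid cells, was the steadiest gene within groups. It was at 407, 378 and 403 CPM in the OE libraries, against 530, 523 and 526 CPM in the NC libraries. Every OE library lay below every NC library, with means of 396 ± 15.8 and 526 ± 3.76 CPM (SD, n = 3 each). The log2 difference was -0.41 ± 0.21 (SE), not called.

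**Figure D3:**
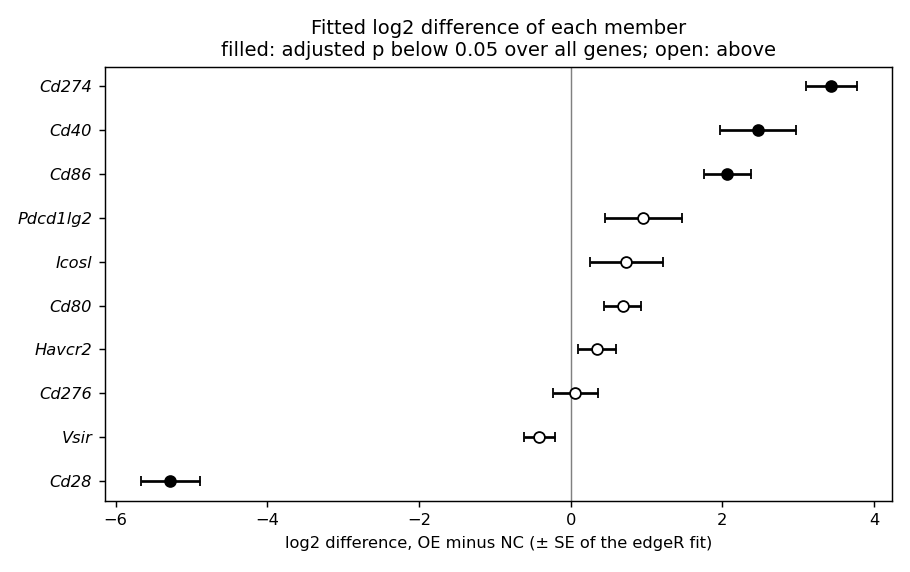
Log2 difference, OE minus NC, of each of the 10 genes (x axis; points with bars of 1 SE from the edgeR fit); filled points were past an adjusted p of 0.05 over all genes and open points were not, a description since the genes were chosen on this contrast. Cd274, Cd40 and Cd86 lie at 2.07 to 3.44 and Cd28 at -5.28, while the others lie between -0.41 and 0.96.

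Levels were compared between genes per kilobase of exon. In the OE libraries Cd274 was highest, at a mean of 299.7 CPM per kilobase, then Vsir at 78.9, Cd86 at 16.4, Cd40 at 10.8, Havcr2 at 9.68, Cd80 at 6.12, Cd276 at 2.96, Pdcd1lg2 at 1.17, Icosl at 0.883 and Cd28 at 0.173. Neighbours whose libraries overlapped in that order were Cd86 with Cd40, Cd40 with Havcr2, and Pdcd1lg2 with Icosl. In the NC libraries Vsir was highest, at 105 CPM per kilobase, then Cd274 at 27.7, Havcr2 at 7.60, Cd28 at 6.75, Cd86 at 3.91, Cd80 at 3.81, Cd276 at 2.84, Cd40 at 1.94, Pdcd1lg2 at 0.599 and Icosl at 0.528. Havcr2, Cd28, Cd86 and Cd80 overlapped from one to the next there, as did Pdcd1lg2 with Icosl.

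The leading gene therefore differed between the groups. Cd274 made up 69.3 ± 5.67% of the summed level of the 10 genes in the OE libraries and 17.1 ± 3.13% in the NC libraries (SD, n = 3 each). Vsir made up 19.3 ± 4.82% in the OE libraries and 65.6 ± 4.82% in the NC libraries. The ratio of Cd274 to Vsir per kilobase was 3.22, 5.45 and 2.83 in the OE libraries, against 0.339, 0.237 and 0.214 in the NC libraries. The summed level was 394, 541 and 345 CPM per kilobase in the OE libraries and 173, 160 and 148 in the NC libraries.

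**Figure D4:**
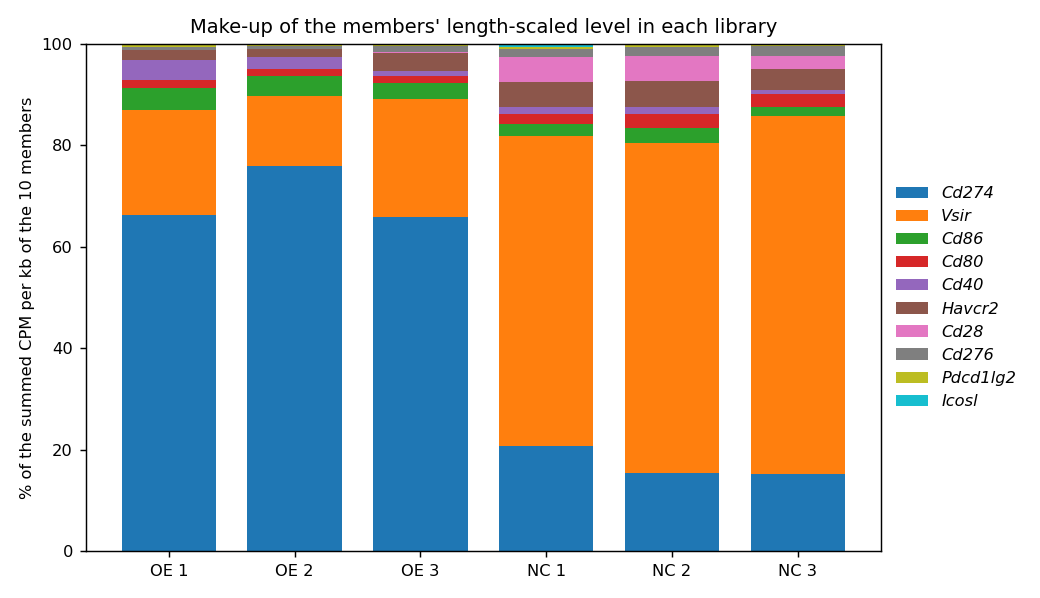
Share of the summed level of the 10 genes (percent, y axis; CPM per kilobase of exon) taken by each gene in each of the 6 libraries, OE left and NC right. Cd274 takes most of each OE bar and Vsir most of each NC bar.

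Likeness between genes was measured as the root mean square difference of log2 CPM profiles over the 6 libraries, each centred on its own mean, among 8020 genes with a mean of at least 10 CPM. The nearest profiles to Cd274 were Clec4e (0.25), Aqp9 (0.25) and Acsl1 (0.25), to Cd86 Pla2g7 (0.11), Plau (0.11) and Tagap (0.14), and to Vsir Mccc1 (0.04), Med17 (0.04) and Ap2m1 (0.05). For Cd28, added after its values were seen, even the nearest genes Gas6 (0.67), Cd5l (0.68) and Dio2 (0.69) lay farther off. Within the set, where no minimum level was set and the prior count of 2 draws the profiles of low genes together, Cd86 and Cd40 were each other's nearest at 0.42, as were Pdcd1lg2 and Icosl at 0.29 and Havcr2 and Cd276 at 0.29. Cd274 lay nearest to Cd86 at 0.74, and Cd28 stood apart at 2.35 from its nearest, Vsir.

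Among the known binding partners of the 10 molecules, 4 were called. Of 13 partner genes 12 were tested by edgeR, of which Lgals9 rose, Ceacam1, Igsf11 and Treml2 fell and 8 did not pass, with a median log2 difference of -0.13. Over all genes 6.9% were called higher and 5.97% lower, and the 1 partner called higher of 12 is near that share. Treml2, a proposed partner of Cd276, was at 11.04 ± 1.76 CPM in OE libraries and 33.6 ± 2.60 CPM in NC libraries (SD, n = 3 each; log2 difference -1.61 ± 0.22 SE, edgeR adjusted p = 0.0020). Lgals9, galectin 9, a ligand of Havcr2, was at 129 ± 6.52 CPM in OE libraries and 67.2 ± 17.8 CPM in NC libraries (0.94 ± 0.24 SE, edgeR adjusted p = 0.029). Ceacam1, also a proposed ligand of Havcr2, whose reads can be shared with its close paralog Ceacam2, was at 12.8 ± 7.13 CPM in OE libraries and 30.8 ± 4.15 CPM in NC libraries (-1.27 ± 0.36 SE, edgeR adjusted p = 0.047). Igsf11, a proposed ligand of Vsir, was at 0.911 ± 0.132 CPM in OE libraries and 2.85 ± 0.250 CPM in NC libraries (-1.64 ± 0.42 SE, edgeR adjusted p = 0.032). The call of Treml2 held without each library, whereas Lgals9 lost it without OE 1, OE 2, NC 2 or NC 3 (edgeR adjusted p 0.052, 0.12, 0.086 and 0.13), Igsf11 without OE 1, OE 2, NC 1, NC 2 or NC 3 (0.075, 0.12, 0.064, 0.14 and 0.10), and Ceacam1 without OE 1, OE 2, NC 1, NC 2 or NC 3 (0.095, 0.19, 0.056, 0.15 and 0.13).

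The T cell receptors among the partners were scarce. Pdcd1 was at 0.680 to 1.23 CPM in OE libraries and 0.0545 to 0.520 CPM in NC libraries, with a log2 difference of 1.80 ± 0.77 (SE). Ctla4 was at 0.236 to 0.906 CPM in OE libraries and 0.0532 to 0.520 CPM in NC libraries (1.26 ± 0.85), and Icos at 0.531 to 4.02 CPM in OE libraries and 0.373 to 2.41 CPM in NC libraries (0.999 ± 0.81). Cd40lg had too few counts to be tested. Other partners and stabilisers are made by many cells: Cmtm6, which keeps PD-L1 at the cell surface, had a log2 difference of -0.53 ± 0.22, its relative Cmtm4 -0.10 ± 0.21, Selplg, a partner of Vsir, 0.30 ± 0.23, Rgmb, a partner of Pdcd1lg2, -0.33 ± 0.23, and Hmgb1, which binds Havcr2, -0.16 ± 0.21 (all SE), and none of these passed.

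Genes listed for the interferon gamma pathway, a known inducer of Cd274, rose or did not pass. The list also holds feedback inhibitors, and the activity of the pathway was not tested. Of 13 tested, 8 rose and 5 did not pass in the edgeR test, beside 6.9% of all genes called higher and 5.97% lower. The median log2 difference was 1.68. That 0 of 13 fell is near the share of all genes, with 1 lower at an unadjusted p below 0.05 and 0 by DESeq2 or limma-voom. Jak2, a kinase of the interferon gamma receptor, was at 116 ± 12.2 CPM in OE libraries and 36.2 ± 4.56 CPM in NC libraries (1.68 ± 0.21 SE, edgeR adjusted p = 0.0013). Socs3, a feedback inhibitor of cytokine signalling, was at 189 ± 80.7 CPM in OE libraries and 25.6 ± 9.58 CPM in NC libraries (2.88 ± 0.40 SE, edgeR adjusted p = 0.0022). Among the others that rose were Stat2, Stat3, Irf1, Irf8 and Socs1, while the receptor genes Ifngr1 and Ifngr2 had log2 differences of -0.60 ± 0.21 and 0.35 ± 0.19 and did not pass. The count of 8 was 5 without OE 2, 4 without NC 2 and 3 with OE 3 alone.

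Irf1, a factor known to act on the Cd274 promoter, was chosen for closer description after its values were seen. It was at 631, 602 and 177 CPM in the OE libraries, against 97.7, 28.4 and 20.0 CPM in the NC libraries (log2 difference 3.27 ± 0.71 SE, edgeR adjusted p = 0.019). The groups did not overlap, with OE 3 the lowest OE library and NC 1 the highest NC library. The call of Irf1 ended without OE 1, OE 2 or NC 2 (edgeR adjusted p 0.082, 0.054 and 0.071).

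Genes that act on the PD-L1 protein were not called. Of 11 genes for its turnover and shedding, among them the ubiquitin ligase adaptor Spop, the kinase Gsk3b and the sheddases Adam10 and Adam17, edgeR called 0, with 2 higher and 0 lower at an unadjusted p below 0.05, and DESeq2 and limma-voom called 0. Their median log2 difference was -0.01. Over all genes 6.9% were called higher and 5.97% lower, so 0 of 11 is near those shares and nothing particular to these genes is read from it.

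Genes listed for CD40 signalling, many of them general NF-kB genes, rose or did not pass. The activity of CD40 itself was not tested, and its ligand gene Cd40lg had too few counts for a test. Of 18 tested, 9 rose and 9 did not pass, beside 6.9% of all genes called higher and 5.97% lower. The median log2 difference was 0.81. That 0 of 18 fell by edgeR is near the share of all genes, with 0 lower at an unadjusted p below 0.05 and 0 by DESeq2 or limma-voom. Birc3, a ubiquitin ligase of the receptor complex, was at 103 ± 24.7 CPM in OE libraries and 27.3 ± 6.48 CPM in NC libraries (1.92 ± 0.26 SE, edgeR adjusted p = 0.0022). Tnfaip3, the NF-kB inhibitor A20, was at 94.2 ± 15.5 CPM in OE libraries and 32.9 ± 3.39 CPM in NC libraries (1.52 ± 0.21 SE, edgeR adjusted p = 0.0024). The adaptor Traf1, named after its values were seen, was at 79.7 ± 39.1 CPM in OE libraries and 12.8 ± 4.88 CPM in NC libraries (2.64 ± 0.42 SE, edgeR adjusted p = 0.0046). The others that rose were Traf3, Traf6, Nfkb2, Relb, Nfkbia and Bcl3, so both activators and inhibitors of NF-kB were among them. With OE 3 alone 4 of the genes were called higher.

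The costimulators of the TNF superfamily included Tnfrsf9, the gene of widest rise among the 7 related lists, cell type markers aside. Of 14 listed, 9 were tested, 3 rose and 6 did not pass, beside 6.9% of all genes called higher and 5.97% lower. The median log2 difference of the 9 was 1.10. Tnfrsf9 (4-1BB), a receptor best known on activated T cells, was at 168, 156 and 52.8 CPM in the OE libraries, against 1.32, 1.76 and 0.654 CPM in the NC libraries (6.64 ± 0.56 SE, edgeR adjusted p = 2.4e-04). Its ligand Tnfsf9 was at 17.8 ± 4.83 CPM in OE libraries and 4.41 ± 1.22 CPM in NC libraries (2.01 ± 0.32 SE, edgeR adjusted p = 0.0039). Tnfsf14 (LIGHT) was the third to rise, at 3.90 to 11.1 CPM in OE libraries and 0.0545 to 1.98 CPM in NC libraries. With OE 3 alone 1 of the genes was called higher.

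Of 7 other genes of the B7, CD28 and butyrophilin families in the table, 3 were tested, and Ildr2 and Vsig4 fell while Btla did not pass. Over all genes 6.9% were called higher and 5.97% lower. Ildr2, a B7-like protein, was at 0, 0 and 0.472 CPM in the OE libraries, against 5.15, 14.5 and 22.8 CPM in the NC libraries (-6.39 ± 0.99 SE, edgeR adjusted p = 0.0044). Vsig4, the complement receptor and inhibitory B7 relative of resident macrophages, was at 0.137, 0.397 and 0.118 CPM in the OE libraries, against 2.08, 5.38 and 1.36 CPM in the NC libraries (-3.69 ± 0.75 SE, edgeR adjusted p = 0.012, and 0.073 without NC 2). Beside these falls, mesothelial markers summed to 2.19 to 8.20 CPM in the OE libraries and 24.8 to 154 CPM in the NC libraries, with Upk3b at 0, 0 and 0.0590 CPM in the OE libraries and 7.08, 56.9 and 66.3 CPM in the NC libraries. Of 6 mesothelial markers with enough counts, edgeR called 4 lower, beside 5.97% of all genes. Msln, Krt8 and Krt19 overlapped between the groups. Fibroblast markers summed to 282 to 803 CPM in the OE libraries and 654 to 1694 CPM in the NC libraries. EdgeR called 2 of the 6 fibroblast markers lower, while Col1a1, Col1a2, Col3a1 and Dcn overlapped between the groups and were not called. Eosinophil markers summed to 0.680 to 1.71 CPM in the OE libraries and 8.31 to 13.4 CPM in the NC libraries, mostly from Siglecf. Siglecf, the only 1 tested, was called lower (-3.03 ± 0.44 SE, edgeR adjusted p = 0.0028). Prg2 and Ccr3 overlapped between the groups and Epx had 0 counts. Mast cell markers summed to 10.4 to 17.9 CPM in the OE libraries and 8.83 to 21.2 CPM in the NC libraries. The part of such cells in Ildr2, Vsig4 or Cd28 was not tested. With OE 3 alone 0 of the tested genes were called lower.

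Of 28 other checkpoint ligands and receptors listed, 19 were tested, 4 rose, 1 fell and 14 did not pass, beside 6.9% of all genes called higher and 5.97% lower, and 1 of 19 is near that share, with a median log2 difference of -0.20. Nt5e (CD73), which makes immunosuppressive adenosine, was at 11.5 ± 1.79 CPM in OE libraries and 0.830 ± 0.676 CPM in NC libraries (3.77 ± 0.58 SE, edgeR adjusted p = 0.0035). Siglece, an inhibitory sialic acid receptor, was at 11.99 ± 2.88 CPM in OE libraries and 1.31 ± 0.772 CPM in NC libraries (3.18 ± 0.47 SE, edgeR adjusted p = 0.0030). Cd47, the signal that restrains phagocytosis, and Pvr, the poliovirus receptor that binds Tigit, also rose, by log2 differences of 1.41 ± 0.25 and 0.81 ± 0.21 (SE). Cd48, the ligand of Cd244a, fell to 42.0 ± 7.90 CPM in OE libraries, against 93.6 ± 29.7 CPM in NC libraries (-1.16 ± 0.27 SE, edgeR adjusted p = 0.020), but not without OE 1, OE 2 or NC 2 (edgeR adjusted p 0.064, 0.11 and 0.088). With OE 3 alone 1 of the genes was called higher and 0 lower. Siglece is also found on neutrophils, whose markers summed to 193 to 601 CPM in the OE libraries and 19.6 to 23.4 CPM in the NC libraries, nearly all from S100a8 and Mmp8. All 3 neutrophil markers with enough counts to be tested were called higher by edgeR, S100a8 by a log2 difference of 3.92 ± 0.68, Mmp8 by 5.00 ± 0.64 (SE) and Camp, which was at 0.590 to 2.81 CPM in the OE libraries and had 0 counts in each NC library. Of the others, Ngp and S100a9 were under 1 CPM in every library, with each OE library above each NC library. Cxcr2 went the other way, with 0 counts in each OE library and 0.0945, 1.01 and 2.345 CPM in NC 1, NC 2 and NC 3. Ltf overlapped, at 0, 0.906 and 0 CPM in the OE libraries and 0.236, 0.586 and 0.436 CPM in the NC libraries. DESeq2 called 4 neutrophil markers higher and 1 lower. Ly6g had 0 counts in all 6 libraries, and the part of neutrophils in these levels was not tested.

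**Figure D5:**
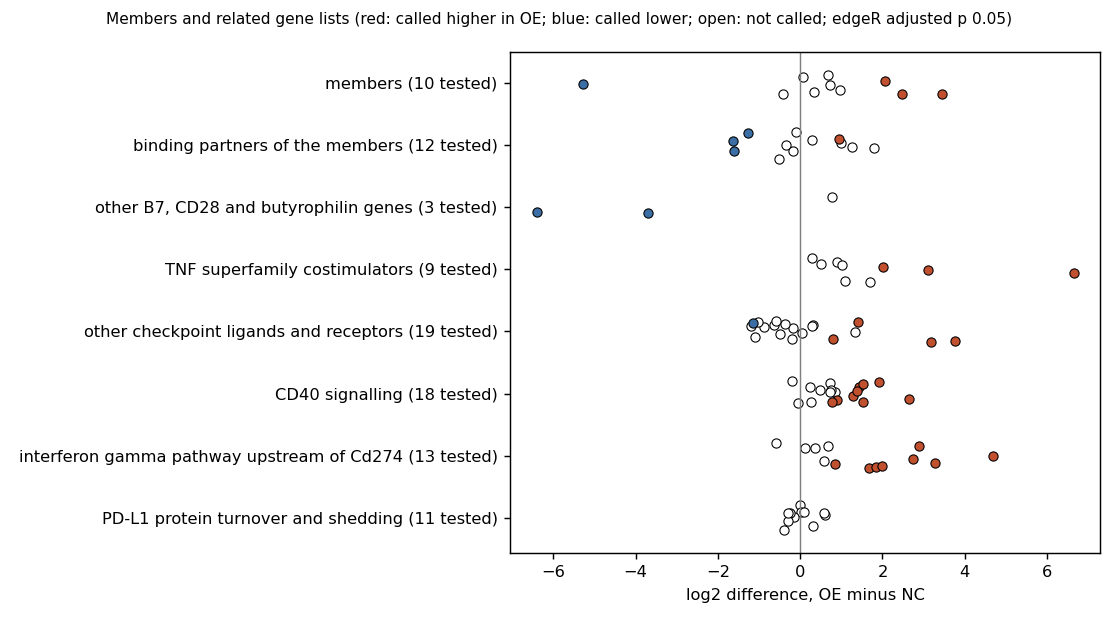
Log2 difference, OE minus NC (x axis), of each tested gene of the 10 costimulatory and checkpoint genes and of 7 related lists (rows); red points were called higher, blue lower and open points not called at an edgeR adjusted p of 0.05. The CD40 signalling row holds 9 red points and the interferon gamma row 8, against 1 to 4 in the other rows that have any, and the B7 family and PD-L1 turnover rows have none. Over all genes tested, 6.9% were called higher and 5.97% lower.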

How the data were processed

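A stranded mRNA-seq kit was used on Trizol-extracted RNA, per the labels' protocols. The authors deposited raw read counts per Ensembl gene for the 6 libraries. Counting with featureCounts 1.5.0-p3, the build mm10 and DESeq2 1.20.0 are named in the submitters' processing notes. The aligner, annotation release and strand setting: not given in the sources used here. Symbols matched 54409 of 54532 identifiers, and coordinates and exon lengths are from GENCODE mouse release M21.

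Counts were tested as deposited with edgeR 4.0.16 in R 4.3.3 (TMM, default low-count filter by group, robust quasi-likelihood fit, group as the only term, Benjamini-Hochberg over 13454 genes). SEs are the log2 difference over the square root of F. Likeness used a prior count of 2. Alternatives were RLE or library-size scaling, no filter, DESeq2 1.42.0, limma-voom (limma 3.58.1), the replicate number as a block and leaving out libraries; 2 that left out a pair of libraries were added after the data were seen. Every within-group pair of libraries differed beyond sampling noise (chi-square per degree of freedom 40.9 to 199). By the same measure OE 3 differed from NC 1, NC 2 and NC 3 by 150, 158 and 153. That is less than from OE 1 (199) and more than from OE 2 (133).

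The members and lists were chosen with earlier results of these data known. Named genes were all members and tested binding partners, and up to 2 higher and 2 lower genes of each list by smallest p; the text marks genes picked once values were known, and otherwise names the rest of a count. Marker genes are given as measured. Some genes of the lists are counted but not reported by name here.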

Additional observations from a re-analysis of the deposited data

How the results depend on the processing

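Of the 10 costimulatory and checkpoint genes, Cd274 and Cd28 kept their direction under every alternative run, and their call in each run with replicates in both groups. The 10 genes were chosen on this contrast and the runs reuse the same libraries. For them this describes the processing and is no test. RLE scaling, limma-voom, DESeq2 and the replicate block changed no call or direction of the 36 genes followed. Same-numbered libraries had deviations correlated at 0.094, 0.0053 and 0.33, so the numbers were not taken to pair the libraries; with the replicate block 957 genes were higher and 945 lower. Without the low-count filter 1457 were higher and 1460 lower, DESeq2 called 1316 and 1240, and library-size scaling, which moved the median log2 difference of all genes to -0.20, called 648 and 910.

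Leaving out 1 library gave 454 to 1657 genes higher and 250 to 1800 lower. Over the same settings 0 to 1 binding partners were higher and 1 to 3 lower, 1 to 3 other B7, CD28 and butyrophilin genes were lower, 0 to 2 other checkpoint genes were lower, and 4 to 9 interferon gamma pathway genes were higher. Library-size scaling left 0 binding partners higher, and called 2 other checkpoint genes and 1 interferon gamma pathway gene lower; no filter and DESeq2 also gave 2 other checkpoint genes lower.

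Without both NC 1 and OE 3, 1922 genes were higher and 2022 lower, with 5 members, 4 binding partners, 1 other B7 family gene, 6 TNF superfamily genes and 13 CD40 signalling genes higher and 4 other checkpoint genes lower. Without both OE 1 and OE 2, 261 were higher and 87 lower, with 1 member, 0 binding partners, 1 TNF superfamily gene, 1 other checkpoint gene, 4 CD40 signalling genes and 3 interferon gamma pathway genes higher, and 1 binding partner, 0 other B7 family genes and 0 other checkpoint genes lower.

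Signs turned for genes not called. Cd276 was -0.10 with library-size scaling and -0.27 to 0.26 over the settings that left out 1 library. Over those settings Hmgb1 was -0.26 to 0.0086 and Cmtm4 reached 0.020. Without NC 1 and OE 3, Cd276 was -0.34, Ctla4 2.81, Icos 2.54, Selplg 0.49 and Cmtm4 -0.25; without OE 1 and OE 2 they were 0.55, -0.0707, -1.14, -0.13 and 0.0042. The cause of these changes was not tested. Genes near 1 CPM, such as Cd28 in the OE libraries, Pdcd1lg2 and the T cell receptors, rest on few counts.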
